A study of Mus musculus with 6 samples.

Results

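Rab GTPases are small GTP-binding proteins that give each membrane compartment of the cell its identity and direct vesicle traffic between compartments. They were followed here in tumour-associated macrophages, the macrophages that live inside a tumour, from mice given vehicle or PLX3397. A gene was counted as a Rab gene where its symbol is Rab followed by a number and at most 1 letter from a to d, and where a probe set on the array carries that symbol alone. The rule found 62 probe sets, which stand for 59 Rab genes among the 19938 genes measured once the brightest probe set, by its mean over the 6 arrays, is kept for each gene.

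The macrophages came from hepa1-6 tumours, a mouse hepatoma line, grown in the liver of C57BL/6 mice, and were sorted by FACS. Of the 6 Affymetrix Mouse Gene 1.0 ST arrays, 3 carry RNA of vehicle-treated mice and 3 carry RNA of mice treated with PLX3397, an inhibitor of the receptor kinases CSF1R, KIT and FLT3. The comparison asks which transcripts differ between the macrophages of the vehicle group and those of the PLX3397 group. The sources used here do not state dose, length of treatment, sorting gate, or the age and sex of the mice. The samples are labelled biological replicates without a statement that each is a separate animal, so p-values measure the spread between these samples, which may be technical. A description field also gives the vehicle samples the name M(LPS+IFNγ) and the treated samples the name M(IL4), which disagrees with their titles and treatment labels and was not used.

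Rab proteins switch between an active, GTP-bound and an inactive, GDP-bound form. Activators (guanine nucleotide exchange factors, GEF) load GTP, GTPase-activating proteins (GAP) end the active state, and effectors bind the active form to tether, move or fuse vesicles. A lipid anchor added by Rab geranylgeranyl transferase with an escort protein holds Rab proteins on membranes, and GDP dissociation inhibitors lift them off again. Macrophages use the pathway to take up and digest particles, recycle surface receptors, bring Toll-like receptors to their sites of signalling and secrete cytokines.

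Rab transcripts moved in both directions. Of the 59 Rab genes, 14 were higher and 15 were lower with PLX3397 at an adjusted p under 0.05 in the limma fit, which is 49.2% of them. Over all 19938 genes, 37.8% passed the same threshold, 19.6% higher and 18.3% lower. Among the 13766 genes above the background level on at least 3 arrays, tested by themselves, 53.6% passed, beside 30 of the 51 Rab genes in that group. The background level of an array is the 95th percentile of its olfactory and vomeronasal receptor genes, and it lay between 3.52 and 3.58. All values are log2 values of the probe sets as deposited, and changes are PLX3397 minus vehicle on that scale with the standard error (SE) of the fit. Arrays of sorted cells are bulk measurements, in which fewer cells of a type and less RNA per cell cannot be told apart.

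The 3 vehicle and the 3 PLX3397 values did not overlap for 38 Rab genes, or 64.4%, of which 20 lay higher and 18 lower. The share over all genes was 49.3%, which includes dim genes and was not worked out for genes above background alone. Of those 38 genes, 28 passed the threshold and 10 did not. The median change was 0.08 over the Rab genes and 0.04 over all genes. The median size of a change, whatever its direction, was 0.28 over the Rab genes and 0.19 over all genes. The 0.19 includes dim genes as well. Whether Rab genes differ in these measures from other genes above background was not tested. A fitted change of 1 log2 or more was found for 5 Rab genes: Rab3d and Rab19 were higher, and Rab10, Rab32 and Rab9 were lower. Rab19 was not above background on any vehicle array, so its rise is known as a bound, at least 1.96-fold. On all 6 arrays 48 Rab genes exceeded the background level, and 5 did so on none, namely Rab30, Rab33a, Rab3b, Rab3c and Rab42. Centring each array on its median lowered every change by about the difference between the group medians, which took the median of all genes from 0.04 to -0.09 and gave 10 Rab genes higher and 19 lower. Directions of small changes are therefore read against that shift.

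**Figure D1:**
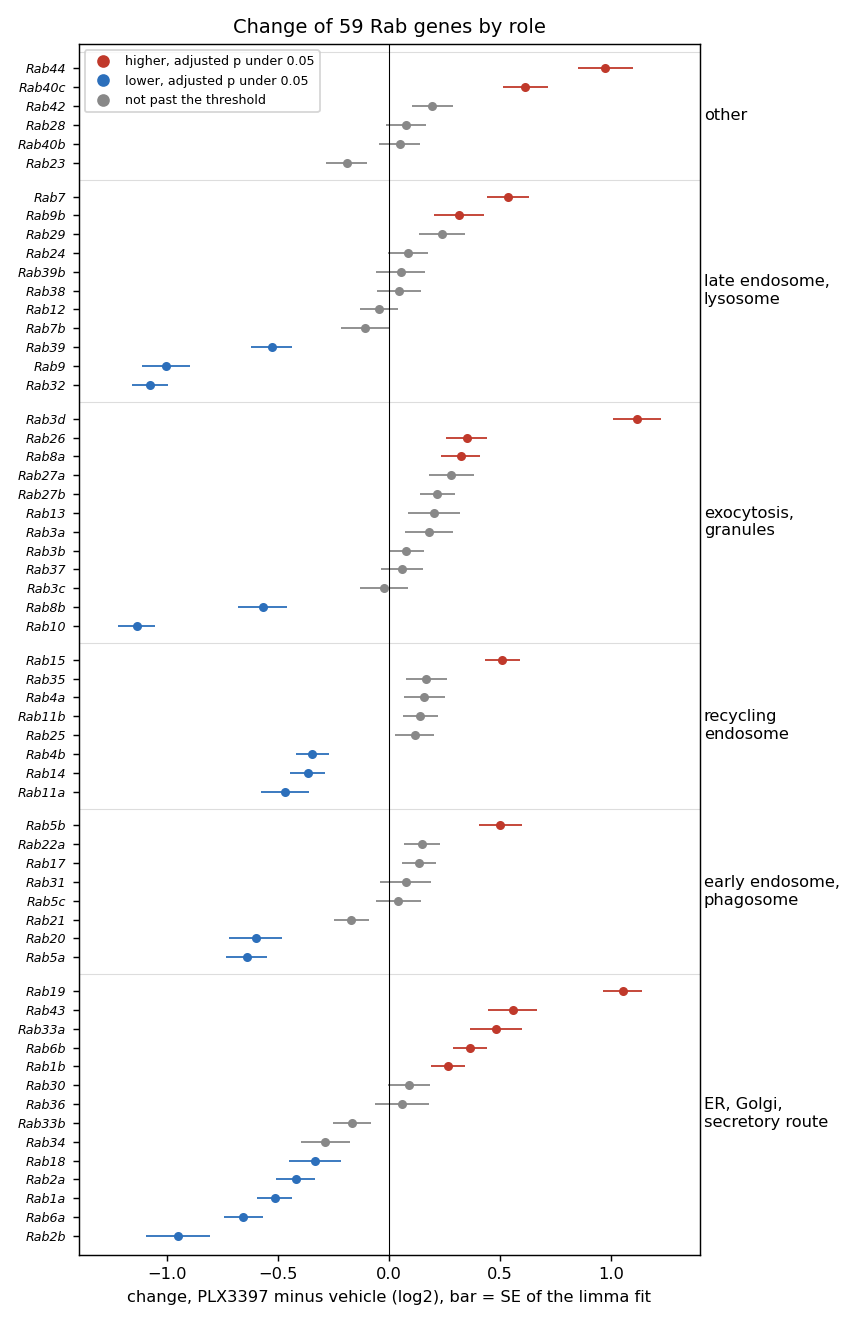
Change of each of the 59 Rab genes, PLX3397 minus vehicle in log2, grouped by the compartment each Rab is known for, with the standard error of the limma fit as a bar. Red points are the 14 genes higher and blue points the 15 genes lower at an adjusted p under 0.05, and 5 of the 6 groups hold both colours.

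Promoter sequence is shown for 3 of the genes whose transcripts differed. Rab5a and Rab5b encode related early endosome proteins whose transcripts moved in opposite directions, and Rab19 went from background to a measurable level. They are picked examples, and each pair or gene includes a window with a match. Rab1, Rab6, Rab8 and Rab9, whose members also passed in opposite directions, are not shown and had no CACGTG match listed. Whether a match goes with the direction of a change was not tested. Each window runs from 250 bases before to 50 bases after the annotated start, 5′ to 3′ on the gene's strand, from RefSeq on GRCm38.p6. Capitals mark a match to CACGTG (the core of the E-box that MiT/TFE factors, regulators of lysosomal genes, bind) or its longer form TCACGTGA in the Rab5 windows, and to TTCNNNGAA (the spacing bound by STAT proteins) in the Rab19 window. The Rab5a window is chr17:53478984-53479283 on the plus strand, the Rab5b window is chr10:128696219-128696518 on the minus strand, and the Rab19 window is chr6:39381103-39381402 on the plus strand.
Rab5a: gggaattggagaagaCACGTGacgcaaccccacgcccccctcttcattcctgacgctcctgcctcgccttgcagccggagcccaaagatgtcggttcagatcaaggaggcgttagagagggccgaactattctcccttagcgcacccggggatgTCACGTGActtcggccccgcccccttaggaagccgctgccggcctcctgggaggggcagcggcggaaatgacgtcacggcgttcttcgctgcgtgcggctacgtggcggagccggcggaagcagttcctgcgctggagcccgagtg
Rab5b: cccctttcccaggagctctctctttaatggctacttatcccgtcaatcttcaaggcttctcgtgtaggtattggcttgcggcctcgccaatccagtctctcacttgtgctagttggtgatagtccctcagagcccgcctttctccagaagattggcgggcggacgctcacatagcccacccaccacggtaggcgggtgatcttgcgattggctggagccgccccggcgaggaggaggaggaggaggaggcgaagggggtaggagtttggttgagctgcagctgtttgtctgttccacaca
Rab19: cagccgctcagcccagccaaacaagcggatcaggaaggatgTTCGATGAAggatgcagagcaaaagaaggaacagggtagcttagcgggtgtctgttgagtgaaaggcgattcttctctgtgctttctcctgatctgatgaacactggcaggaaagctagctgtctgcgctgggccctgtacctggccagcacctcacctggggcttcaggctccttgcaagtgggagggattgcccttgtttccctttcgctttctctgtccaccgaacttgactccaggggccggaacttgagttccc
CACGTG begins 235 and 95 bases before the start of Rab5a, the nearer one inside TCACGTGA, and is not among the letters of the Rab5b window. TTCNNNGAA begins 209 bases before the start of Rab19.

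RefSeq windows were matched by symbol for 48 of the 59 Rab genes, 60 windows in all. CACGTG, which reads the same on both strands, was found in 6 of those 48 genes (12.5%) and in 8.09% of all 27025 genes with a window. It was found in 0 of 12 matched genes that were higher, in 2 of 13 that were lower (Rab20 and Rab5a) and in 4 of 23 that did not pass the threshold (Rab21, Rab23, Rab24 and Rab27a). TCACGTGA, every match of which also counts for CACGTG, was found in 5.0% of the Rab windows (Rab5a, Rab21 and Rab24) and in 0.974% of all 32851 windows. TTCNNNGAA, also searched on both strands, was found in 8.33% of the Rab windows and in 8.30% of all windows. Its Rab matches were Rab15 (in 1 of its windows) and Rab19 among the genes that were higher, Rab11a among those that were lower, and Rab25 and Rab34 among the rest. These are matches of letters and say nothing about binding.

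The Rabs of the endoplasmic reticulum and Golgi, which carry newly made proteins along the secretory route, changed in both directions. Of 14 measured, 5 were higher, among them Rab33a, which was never above background, and 5 were lower, and the median change was -0.06. That is 71.4% past the threshold, beside 37.8% of all genes and 53.6% of the genes above background on at least 3 arrays. After median centring Rab1b was no longer called, and Rab33b (-0.30, adjusted p = 0.0176) and Rab34 (-0.42, adjusted p = 0.0147) were called lower. The lower ones included Rab1a, which acts in transport from the endoplasmic reticulum to the Golgi, Rab2a and Rab2b, which act on Golgi membranes, and Rab6a, which acts in transport within and back from the Golgi. Rab2b read 7.19, 7.51 and 7.38 on the vehicle arrays and 6.50, 6.66 and 6.08 on the PLX3397 arrays, and so fell by 0.95 (SE 0.14, adjusted p = 4.55e-04). Rab6a read 8.63, 8.71 and 8.63 with vehicle and 8.001, 8.13 and 7.87 with PLX3397, and fell by 0.66 (SE 0.09, adjusted p = 2.07e-04). The groups were apart for both genes, and for Rab2b the third PLX3397 array was the lowest of the 6. Rab1a read 9.96, 10.01 and 9.90 with vehicle and 9.50, 9.38 and 9.44 with PLX3397, and fell by 0.52 (SE 0.08, adjusted p = 4.83e-04). Rab2a read 9.74, 9.69 and 9.77 with vehicle and 9.30, 9.45 and 9.19 with PLX3397, and fell by 0.42 (SE 0.09, adjusted p = 0.00371). A second Rab2a probe set fell by 0.34, so both probe sets of that gene moved the same way. Rab18, a Rab of the endoplasmic reticulum and of lipid droplets, read 6.87, 6.62 and 7.05 with vehicle and 6.56, 6.61 and 6.36 with PLX3397, and fell by 0.33 (SE 0.12, adjusted p = 0.0485). Its lowest vehicle array was barely above its highest PLX3397 array, and the call did not hold without vehicle replicate 1 (0.114) or 3 (0.178) or without PLX3397 replicate 1 (0.0837), 2 (0.0543) or 3 (0.134), under quantile normalisation (0.124) or with the replicate number as a block (0.0787), each value in brackets being the adjusted p.

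The secretory Rabs that were higher were Rab19, Rab43, Rab33a, Rab6b and Rab1b. Rab19, a little-studied Golgi Rab, read 3.53, 3.45 and 3.36 on the vehicle arrays, none above background, and 4.48, 4.62 and 4.40 on the PLX3397 arrays, all above it. That is at least 1.96-fold higher with PLX3397, a bound that takes each vehicle value at the background level of its array where it lay below that level (change 1.05, SE 0.09, adjusted p = 8.12e-06). Rab43, a Rab of the Golgi and of antigen handling in dendritic cells, read 7.50, 7.42 and 7.76 with vehicle and 8.12, 8.26 and 7.97 with PLX3397, a rise of 0.56 (SE 0.11, adjusted p = 0.00277). Rab6b, the paralogue of Rab6a that is best known from neurons, read 4.59, 4.56 and 4.48 with vehicle and 4.89, 4.88 and 4.94 with PLX3397, a rise of 0.36 (SE 0.08, adjusted p = 0.00381). Within each group the Rab6b arrays differed little from one another. Rab1b, the paralogue of Rab1a, read 9.72, 9.74 and 9.75 with vehicle and 9.98, 9.96 and 10.07 with PLX3397, a rise of 0.26 (SE 0.08, adjusted p = 0.0200). The Rab1b groups were apart, but the adjusted p was 0.220 after median centring, 0.0602 without vehicle replicate 1, 0.0508 without vehicle replicate 3 and 0.0587 without PLX3397 replicate 3. Rab33a passed the test at 0.48 (SE 0.12, adjusted p = 0.00828), from 2.88, 2.80 and 2.65 to 3.26, 3.48 and 3.04, but was not above background on any array. Rab30, Rab33b, Rab34 and Rab36, which are Golgi Rabs as well, did not pass, with changes between -0.29 and 0.09 and a smallest adjusted p of 0.0634 for Rab34. Rab34 had an adjusted p of 0.0105 and a change of -0.40 without vehicle replicate 1.

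Rab5 proteins recruit the machinery by which early endosomes fuse, and also mark young phagosomes. Among the 8 early endosome and phagosome Rabs, 2 were lower and 1 was higher, with a median change of 0.06. The share past the threshold was 37.5%, near the 37.8% of all genes. Rab5a read 8.66, 8.83 and 8.54 with vehicle and 8.02, 8.07 and 8.02 with PLX3397, and fell by 0.64 (SE 0.09, adjusted p = 2.73e-04). Rab5b read 8.26, 8.15 and 8.28 with vehicle and 8.71, 8.90 and 8.60 with PLX3397, and rose by 0.50 (SE 0.10, adjusted p = 0.00195). The 3 arrays of each group were apart for both genes, in opposite directions, and a second Rab5b probe set also rose by 0.50. Rab5c, the third member, changed by 0.04 (SE 0.10, adjusted p = 0.782). Rab20, a Rab of phagosome maturation that interferon-gamma induces in macrophages, read 7.88, 7.88 and 8.08 with vehicle and 7.28, 7.60 and 7.16 with PLX3397, and fell by 0.60 (SE 0.12, adjusted p = 0.00243). Rab17, Rab21, Rab22a and Rab31, which sort cargo from endosomes, did not pass, with changes from -0.17 for Rab21 to 0.15 for Rab22a. Rab21 was called lower after median centring (-0.305, adjusted p = 0.011) and Rab22a higher under quantile normalisation (0.249, adjusted p = 0.0177).

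Recycling endosome Rabs return internalised receptors to the surface, by a fast route through Rab4 and a slower one through Rab11. Of the 8 measured, 3 were lower, 1 was higher and 4 did not pass, with a median change of 0.13. Rab11a read 8.60, 8.54 and 8.69 with vehicle and 7.93, 8.34 and 8.15 with PLX3397, and fell by 0.47 (SE 0.11, adjusted p = 0.00601). Rab14, which acts between the Golgi, recycling endosomes and phagosomes, read 9.42, 9.38 and 9.34 with vehicle and 9.08, 8.94 and 9.02 with PLX3397, and fell by 0.37 (SE 0.08, adjusted p = 0.00422). Rab4b read 8.82, 8.81 and 8.85 with vehicle and 8.48, 8.52 and 8.43 with PLX3397, and fell by 0.35 (SE 0.08, adjusted p = 0.00441). The groups were apart for these 3 genes, most narrowly for Rab11a. Rab15, which is best known from recycling endosomes of neurons, read 3.34, 3.38 and 3.32 on the vehicle arrays, none above background, and 3.96, 3.82 and 3.80 on the PLX3397 arrays, all above it, which is at least 1.26-fold higher with PLX3397 (change 0.51, SE 0.08, adjusted p = 5.76e-04). Rab11b, Rab4a, Rab25 and Rab35 did not pass, with changes from 0.12 to 0.17.

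The exocytosis and granule Rabs, which bring vesicles to the plasma membrane, held the largest fall among the 59 Rab genes, that of Rab10, and a rise of similar size in Rab3d. Of 12 measured, 3 were higher, 2 were lower and 7 did not pass, with a median change of 0.19. In this group 41.7% passed, beside 37.8% of all genes and 53.6% of the genes above background on at least 3 arrays. Rab10, which carries the glucose transporter GLUT4 in fat cells and the lipopolysaccharide receptor TLR4 in macrophages to the surface, read 9.96, 10.10 and 9.99 with vehicle and 8.82, 8.97 and 8.85 with PLX3397. It fell by 1.14 (SE 0.08, adjusted p = 3.01e-06), with means and SD of 10.01 ± 0.08 and 8.88 ± 0.08 (n = 3 per group). Rab3d, a Rab of secretory granules, read 6.09, 5.98 and 6.09 with vehicle and 7.19, 7.38 and 6.95 with PLX3397. It rose by 1.12 (SE 0.11, adjusted p = 2.06e-05), from 6.06 ± 0.06 to 7.17 ± 0.21 (SD, n = 3 per group). For both genes the distance between the groups was several times the spread within them. Rab8b, which acts in delivery to the surface and in autophagy, read 9.54, 9.69 and 9.32 with vehicle and 8.82, 9.08 and 8.94 with PLX3397, and fell by 0.57 (SE 0.11, adjusted p = 0.00224). Its paralogue Rab8a read 9.06, 9.12 and 9.20 with vehicle and 9.38, 9.58 and 9.38 with PLX3397, and rose by 0.32 (SE 0.09, adjusted p = 0.0154). The Rab8a call did not hold after median centring (adjusted p = 0.130), without vehicle replicate 1 (0.0582) or without PLX3397 replicate 2 (0.0506). Rab26, a Rab of secretory granules, read 4.02, 3.95 and 3.80 with vehicle and 4.20, 4.38 and 4.25 with PLX3397, and rose by 0.35 (SE 0.09, adjusted p = 0.0117). That call did not hold under quantile normalisation (adjusted p = 0.0502), after median centring (0.0803) or without vehicle replicate 3 (0.0513).

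Rab27a and Rab27b, which dock lysosome-related granules and exosome-bearing endosomes, stayed just short of the threshold. Rab27a changed by 0.28 with an adjusted p of 0.05003, which became 0.0334 without vehicle replicate 3 and 0.0454 without PLX3397 replicate 1. Over the alternatives the Rab27a change ranged from 0.15 to 0.35, and its adjusted p reached 0.289. Rab27b changed by 0.22 (adjusted p = 0.0551) and was above background on 0 vehicle arrays and 2 PLX3397 arrays. Rab13, Rab37, Rab3a, Rab3b and Rab3c did not pass either. Of these, Rab13 changed by 0.20 in the fit of all 6 arrays and by 0.32, with an adjusted p of 0.0281, without PLX3397 replicate 3.

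Rabs of late endosomes and lysosomes direct cargo to degradation or away from it. Of 11 measured, 3 were lower, 2 were higher and 6 did not pass, with a median change of 0.04. Here 45.45% passed, beside 37.8% of all genes and 53.6% of the genes above background on at least 3 arrays. Rab7, which drives fusion of late endosomes and phagosomes with lysosomes, read 9.81, 9.93 and 9.81 with vehicle and 10.38, 10.54 and 10.25 with PLX3397, and rose by 0.54 (SE 0.09, adjusted p = 0.00114). Rab9, which returns mannose 6-phosphate receptors from late endosomes to the Golgi, read 6.78, 6.97 and 6.83 with vehicle and 5.75, 6.07 and 5.74 with PLX3397, and fell by 1.01 (SE 0.11, adjusted p = 3.62e-05). Rab32, which serves lysosome-related organelles and the killing of intracellular bacteria, read 7.92, 7.77 and 7.91 with vehicle and 6.85, 6.77 and 6.75 with PLX3397, and fell by 1.08 (SE 0.08, adjusted p = 3.90e-06). The groups of Rab9 and Rab32 were far apart. Those of Rab7 were apart more narrowly, with a highest vehicle value of 9.93 and a lowest PLX3397 value of 10.25. Rab39, linked to phagosomes and autophagy, read 4.73, 4.61 and 4.52 with vehicle and 4.21, 4.06 and 4.00 with PLX3397, and fell by 0.53 (SE 0.09, adjusted p = 0.00108). Rab9b read 3.44, 3.82 and 3.54 with vehicle and 3.94, 4.02 and 3.79 with PLX3397, a rise of 0.31 (SE 0.11, adjusted p = 0.0480). The Rab9b groups overlapped, with 2 of 3 vehicle arrays above background, and the adjusted p was 0.169 without vehicle replicate 1, 0.135 without vehicle replicate 3, 0.115 without PLX3397 replicate 1, 0.142 without PLX3397 replicate 2, 0.170 under quantile normalisation and 0.244 after median centring. Rab12, Rab24, Rab29, Rab38, Rab39b and Rab7b did not pass, with changes from -0.11 for Rab7b to 0.24 for Rab29. Rab29 was called higher under quantile normalisation (0.33, adjusted p = 0.0187).

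Of the 6 Rab genes outside these compartments, 2 were higher, 0 were lower and 4 did not pass. The share past the threshold was 33.3%, beside 37.8% of all genes. Rab44, a large Rab with calcium-binding EF hands found in bone marrow-derived cells, read 4.68, 4.47 and 4.23 with vehicle and 5.41, 5.28 and 5.60 with PLX3397, a rise of 0.97 (SE 0.12, adjusted p = 1.34e-04). Rab40c, an adaptor of a ubiquitin ligase through its SOCS box, read 5.87, 5.99 and 5.90 with vehicle and 6.52, 6.72 and 6.37 with PLX3397, a rise of 0.62 (SE 0.10, adjusted p = 7.18e-04). Neither gene's groups overlapped. Rab23, a regulator of Hedgehog signalling and cilia, Rab28, Rab40b and Rab42 changed by -0.19 to 0.19. Rab23 was called lower under quantile normalisation (-0.30, adjusted p = 0.0374) and after median centring (-0.33, adjusted p = 0.0262).

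**Figure D2:**
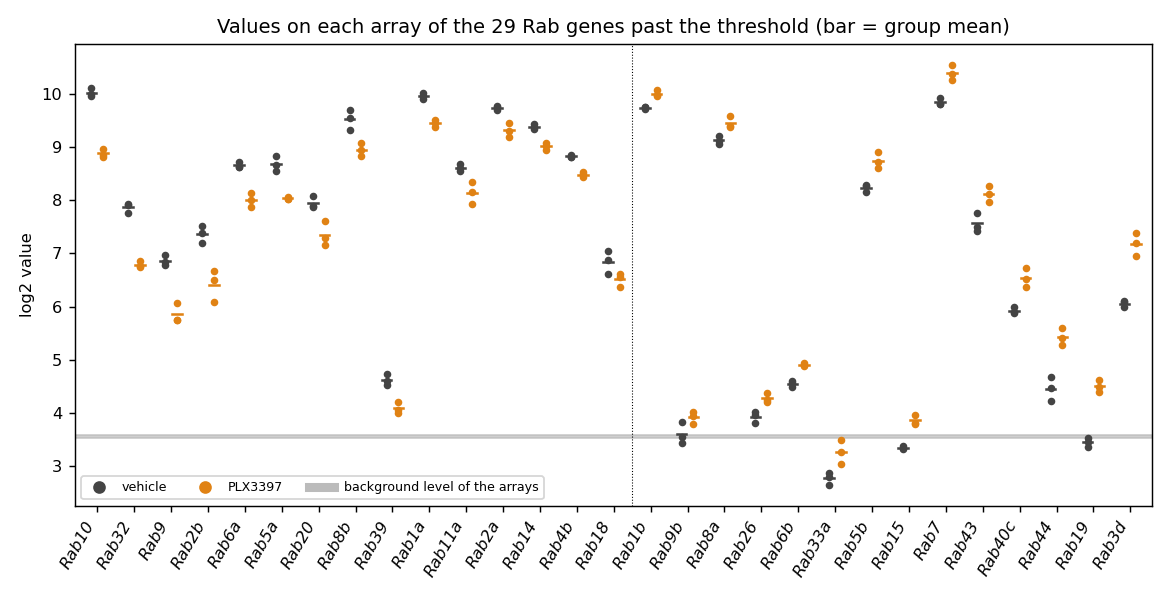
Log2 value on each of the 6 arrays for the 29 Rab genes past the threshold, dark points for vehicle and orange points for PLX3397, with a bar at each group mean, lower genes to the left of the dotted line and higher genes to its right. Rab33a lies under the grey background band in both groups, Rab19 and Rab15 cross it, and levels of different genes cannot be compared because each comes from its own probe set.

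Paralogues, taken here as genes that share a number and encode related proteins, did not always move together. The array measures 15 such sets with 33 genes, Rab32 and Rab38 counted as 1 set. In 5 sets, Rab1, Rab5, Rab6, Rab8 and Rab9, members passed the threshold in opposite directions, and in 4 of these all members were above background on all 6 arrays. Over all genes 19.6% were higher and 18.3% lower, and 53.6% of those above background on at least 3 arrays passed in their own fit. How often unrelated genes pass in opposite directions was not tested. The a member was lower and the b member higher for Rab1 (-0.52 and 0.26), Rab5 (-0.64 and 0.50) and Rab6 (-0.66 and 0.36). For Rab8 the direction was turned, with Rab8a at 0.32 and Rab8b at -0.57, and for Rab9 the changes were -1.01 for Rab9 and 0.31 for Rab9b. The calls of Rab5a, Rab5b, Rab6a and Rab6b held in every alternative that tested them at the same threshold, whereas Rab1b, Rab8a and Rab9b each lost the call in some, median centring among them. In 9 sets members passed in 1 direction only, and in 1 of these, Rab2, both members were lower. In others of the 9, Rab11a was lower by 0.47 beside a change of 0.14 in Rab11b, Rab4b was lower by 0.35 beside 0.16 in Rab4a, and Rab32 was lower by 1.08 beside 0.04 in Rab38, which exceeded background on 1 array of each group. Rab3d was the 1 of 4 Rab3 genes that passed. Whether members of those 9 sets differ in their change was not tested. In the Rab27 set neither member passed. Paralogues and their processed copies share sequence, so probes of 1 member can pick up another, which would make values of single members uncertain. Rab2a, Rab5b and Rab11b are each measured by 2 probe sets whose positions were not checked, so the brighter one, used here, may match a processed copy. The changes of the brighter and the other probe set were -0.42 and -0.34 for Rab2a, 0.50 and 0.50 for Rab5b and 0.14 and 0.19 for Rab11b.

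**Figure D3:**
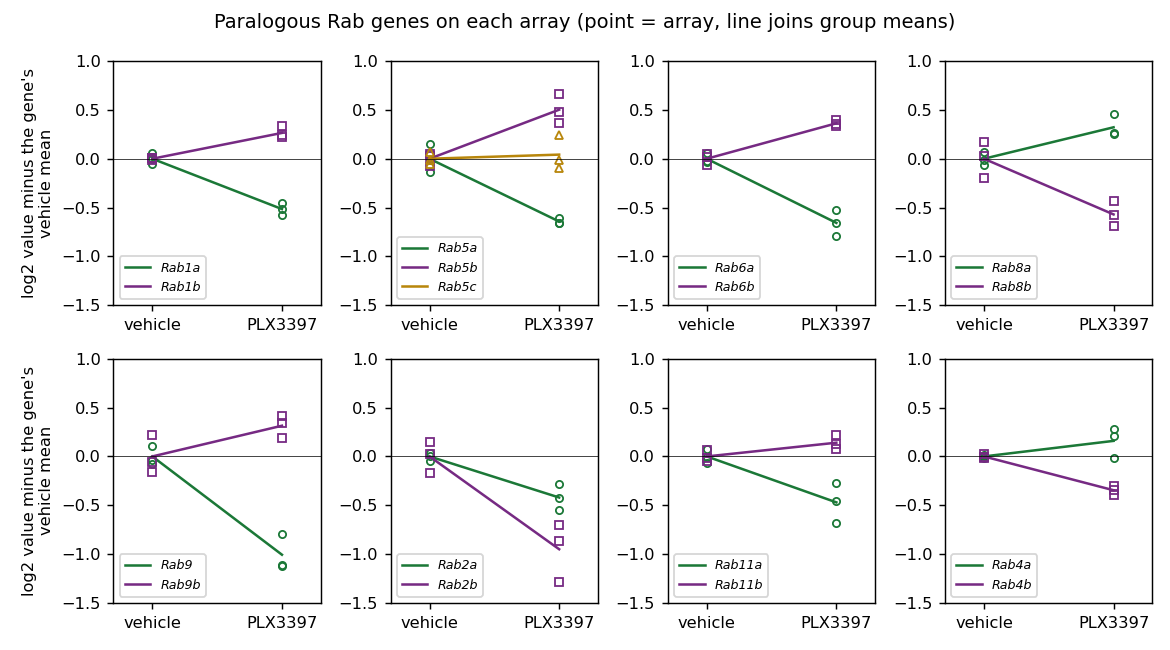
Log2 value minus the gene's own vehicle mean on each array for 8 paralogue sets, with a point per array and lines that join the group means. Rab5a and Rab5b separate to -0.64 and 0.50 with Rab5c near 0, while Rab2a and Rab2b fall together.

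The genes that load Rabs onto membranes and switch them were also looked at, as 5 lists with 156 measured genes. Of these, 36 were higher and 48 were lower, 53.8%, beside 37.8% of all genes and 53.6% of the genes above background on at least 3 arrays. Of the 156 genes, 144 were above background on all 6 arrays and 9 on none. In the fit of the genes above background on at least 3 arrays, 36 were again higher and 48 lower. The 53.8% counts all 156 genes, also those below background, so it cannot be set directly beside the 53.6%. After median centring 20 were higher and 55 lower. The lists had a median change of 0.01 and a median size of 0.34. All 7 measured genes of the membrane cycle passed the threshold, 4 lower and 3 higher. Chm, the escort protein REP1 that presents new Rab proteins for lipid attachment, fell from 7.33 ± 0.05 to 6.16 ± 0.08 (SD, n = 3 per group), a change of -1.17 (SE 0.08, adjusted p = 1.97e-06). Its relative Chml (REP2) fell by 0.50 (SE 0.17, adjusted p = 0.0407), a call that did not hold without vehicle replicate 2 (adjusted p = 0.143) or 3 (0.101) or without PLX3397 replicate 1 (0.0607) or 2, where the change was -0.29 (0.101). Gdi2, a GDP dissociation inhibitor, read 9.78, 9.77 and 9.78 with vehicle and 9.19, 9.28 and 8.99 with PLX3397, and fell by 0.62 (SE 0.09, adjusted p = 3.23e-04). The enzyme's subunits differed in direction, Rabggtb at -0.56 and Rabggta at 0.32, the latter with an adjusted p of 0.138 after median centring, 0.0841 without vehicle replicate 2, 0.0520 without vehicle replicate 3 and 0.0724 without PLX3397 replicate 2. Icmt, which methylates prenylated proteins, rose by 0.39 (adjusted p = 0.0645 after median centring), and Rabac1, which helps Rabs leave their dissociation inhibitor, rose by 0.55.

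Among 47 activators, 9 were higher and 14 lower. That is 48.9% of them, beside 37.8% of all genes and 53.6% of the genes above background on at least 3 arrays. Dennd3, an activator of Rab12, read 4.37, 4.05 and 3.96 with vehicle and 6.77, 6.59 and 6.50 with PLX3397, a rise of 2.49 (SE 0.12, adjusted p = 1.70e-07). Rab12 itself did not pass, at -0.05. Dennd6a, an activator of Rab14, read 8.03, 8.16 and 8.03 with vehicle and 6.12, 6.33 and 6.31 with PLX3397, and fell by 1.82 (SE 0.09, adjusted p = 1.97e-07), in the same direction as Rab14. Sbf2, a DENN-domain protein of the myotubularin family, fell by 1.36, and Wdr41, a partner of the C9orf72 and Smcr8 complex, fell by 0.80. Dennd2a, an activator of Rab9, rose by 0.62, and Rab3il1, an activator of the Rab8 family, rose by 0.47.

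Among 36 GAP genes, 11 were higher and 10 lower. These are 58.3% of the list, beside 37.8% of all genes and 53.6% of the genes above background on at least 3 arrays. The largest rises were those of Tbc1d2, which inactivates Rab7, at 1.29 (from 5.10 ± 0.10 to 6.38 ± 0.23, SD, n = 3 per group), Tbc1d9 at 0.78 and Sgsm2, which acts on Rab32 and Rab38, at 0.47. The largest falls were those of Tbck at -0.90, Evi5 at -0.72 and Tbc1d8b at -0.69, and both Evi5 and Tbc1d8b are partners of Rab11.

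Among 59 effectors and other Rab partners, 11 were higher and 18 lower. The share past the threshold was 49.2%, beside 37.8% of all genes and 53.6% of the genes above background on at least 3 arrays. Mical1, an enzyme that oxidises actin and binds Rab1 and Rab8 proteins, read 5.31, 4.83 and 5.20 with vehicle and 7.50, 7.26 and 7.36 with PLX3397, a rise of 2.26 (SE 0.12, adjusted p = 4.53e-07). Lrrk2, a kinase that phosphorylates Rab8 and Rab10 and is recruited by Rab29, read 5.16, 5.36 and 5.42 with vehicle and 7.21, 7.12 and 6.70 with PLX3397, a rise of 1.70 (SE 0.13, adjusted p = 4.72e-06). The dimmest probe set with the Lrrk2 symbol changed by -0.024 (adjusted p = 0.846), so the Lrrk2 rise rests on the probe set used. Its relative Lrrk1, which phosphorylates Rab7, rose by 0.93. These 3 genes were higher on every PLX3397 array than on any vehicle array. Appl1, an effector of Rab5 on early endosomes, fell from 7.42 ± 0.12 to 6.05 ± 0.18 (SD, n = 3 per group), a change of -1.37 (SE 0.11, adjusted p = 5.15e-06). Gcc2, a golgin of the trans-Golgi network, fell by 1.31 and Rufy3, a RUN-domain protein, by 1.14. Of 7 Rab-like GTPases outside the rule, Rasef (0.53) and Ift27 (0.35) rose, Ift22 (-0.95) and Rabl3 (-0.61) fell, and 3 did not pass. Their share past the threshold was 57.1%. Ift27 and Rasef did not hold after median centring (adjusted p = 0.0747 and 0.0519), and Rasef did not hold without vehicle replicate 2 (0.0662) or 3 (0.0642), where it changed by 0.38, and changed by 4.5e-04 in its dimmest probe set.

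**Figure D4:**
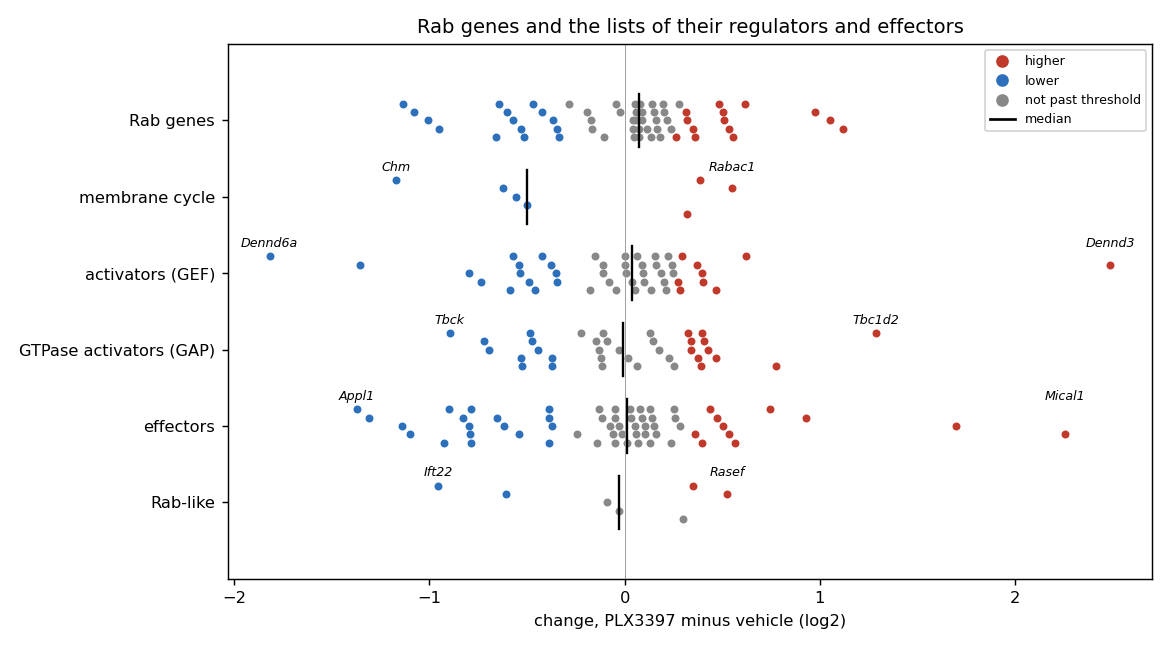
Change of each gene, PLX3397 minus vehicle in log2, for the 59 Rab genes and the 5 lists of regulators and partners, a point per gene and a black bar at the median of each list and names at the lowest and highest gene of each list of regulators. Dennd3 at 2.49 and Mical1 at 2.26 rose the most and Dennd6a at -1.82 fell the most, while the Rab genes lie between -1.14 and 1.12.

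Macrophage markers were high in both groups: all 8 were above background on every array, and their summed linear level was 20600 to 20900 with vehicle and 21200 to 22800 with PLX3397. Of these 8, Cd14 and Itgam rose and Adgre1, Fcgr1 and Mertk fell. Markers of other cells moved as well. Over all 19938 genes, 19.6% were higher and 18.3% lower at the same threshold. The summed level of 7 endothelial markers was 186 to 199 with vehicle and 457 to 472 with PLX3397, with 5 of 7 higher and Tek never above background. For 5 platelet and erythroid markers it was 2120 to 2230 against 3300 to 4400, with 4 of 5 higher and Alas2 never above background. Pf4 alone makes up most of that sum, with log2 means of 10.99 with vehicle and 11.53 with PLX3397. The means were 6.94 and 9.46 for Ppbp, 4.08 and 4.59 for Itga2b, and 3.45 and 3.76 for Gp9. Such sums add levels of different probe sets and follow the brightest genes, so they do not measure amounts of a cell type. For 10 neutrophil markers the summed level was 249 to 264 against 425 to 750, with 3 of 10 higher (S100a8, Ltf and Ly6g). Of these 3, Ltf and Ly6g were never above background, like Cxcr2, Elane, Ngp and Retnlg. S100a8, the brightest of the 10, had log2 means of 7.22 with vehicle and 8.74 with PLX3397. For 7 dendritic cell markers the summed level was 86.3 to 93.6 against 201 to 378, with 2 of 7 higher (Ccr7 and Zbtb46). Clec9a, Siglech and Xcr1 were never above background. Ccr7, the brightest of the 7 with PLX3397, rose from a log2 mean of 4.17 to 7.52. The summed levels of the next 3 cell types are given in the same order. For 7 mast cell, basophil and eosinophil markers it was 61.6 to 70.3 against 197 to 308, with Hdc alone higher and Cpa3, Fcer1a, Mcpt8, Ms4a2 and Prg2 never above background. For 6 T cell markers it was 81.4 to 94.1 against 147 to 155, with Lat alone higher and Cd3d and Cd3g never above background. For 5 B and plasma cell markers it was 59.2 to 62.2 against 72.4 to 83.1, with 3 of 5 higher (Cd79a, Cd79b and Ms4a1). Of these 3, Cd79a and Ms4a1 were never above background, like Jchain. Of the 5 NK cell and 7 hepatocyte markers 0 passed. The NK cell markers Gzma, Klra8, Klrb1c and Ncr1 and the hepatocyte markers Alb and Ttr were never above background. Of 7 fibroblast markers Col1a1 and Col1a2 were lower and 0 were higher. The summed fibroblast level was 496 to 720 with vehicle and 514 to 1230 with PLX3397. Acta2, Col3a1, Dcn, Lum and Pdgfrb did not pass, with changes from 0.13 for Col3a1 to 0.95 for Dcn. The part of these other cell types in the Rab changes was not tested. The third PLX3397 array stood apart by 37 genes over 2 log2 above both other arrays' mean, of which 0 were Rab genes, and without it 14 Rab genes were higher and 14 lower.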

How the data were processed

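Values are those the authors deposited, log2 per probe set, for 6 arrays. The submitters' processing notes name MAS5 without a version or role, and no source used here states the summarisation, normalisation or probe filters. The log base was read from the values, which ran from 1.57 to 13.5. The medians of the 6 arrays differed by less than 0.5, so no further normalisation was applied, and the number of arrays limits the precision. Of 28941 probe sets, 21789 carry 1 symbol in the platform annotation, 1621 several and 5531 none. Each of 19938 genes was represented by its brightest probe set. All 59 Rab genes matched a current symbol by Entrez identifier.

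Groups and replicate numbers came from the titles. Limma 3.58.1 in R 4.3.3 fitted group alone (lmFit, eBayes, two-sided), with Benjamini-Hochberg adjustment over all genes and a threshold of 0.05. The fit was tested on simulated data. With 3 arrays per group an exact permutation test of 1 gene cannot go below p = 0.1. The background level used 1190 receptor genes. Every Rab gene past the threshold was named, the others by compartment, and of each regulator list the 3 largest rises and 3 largest falls among genes past the threshold. The members and lists were chosen with earlier results of these data known. Alternatives were quantile normalisation, median centring, filters on dim genes, a replicate block, other variance settings, array weights, other probe set choices, stricter thresholds and leaving out each array.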

Additional observations from a re-analysis of the deposited data

How the results depend on the processing

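In 16 of the 18 alternatives the threshold stayed at 0.05 without a minimum change. There 24 of the 29 Rab genes past the threshold kept call and direction in every setting that tested them, the exceptions being Rab18, Rab1b, Rab26, Rab8a and Rab9b. Of the 30 others, 21 passed in none of these settings, and of the 59 Rab genes 0 turned direction with a call. The count of 14 higher Rab genes became 7 with genes of a mean of at least 5 log2, where 36 Rab genes are tested, and 8 with a change of at least 0.5 log2 required. The count of 36 higher regulator genes became 20 after median centring and 13 with that minimum change. Taking the dimmest probe set turned Lrrk2 from 1.70 to -0.024. Median centring took the share of higher genes among all calls from 51.7% to 30.6%. Leaving out each array in turn gave 11 to 14 Rab genes higher and 14 to 15 lower, and 27 to 40 regulator genes higher and 42 to 48 lower.

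With the replicate number as a block, 14 Rab genes were higher and 14 lower, Rab18 being the call lost, and 36 and 48 regulator genes. Deviations of same-numbered arrays correlated at -0.01, 0.008 and -0.013 across genes, so no pairing by number was visible. The check cannot exclude that same-numbered samples were handled together, because such handling need not leave a shared deviation. Genes at the background level have no measured level, and scanner files were not used here, so no hybridisation batch could be examined.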
